A study of Sus scrofa with 15 samples.

Results

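MYC is 1 of the 16660 genes in the count table and is identified there as ENSSSCG00000005965. It was picked for a higher level in every PKD2 genotype than in the empty-plasmid control, so its differences from that control are given as a description, without a test. The samples were LLC-PK1 cells, an established epithelial line from the proximal tubule of pig kidney, and each was transiently transfected with 3 µg of a plasmid and harvested after 48 h. The negative control (NC) received the empty plasmid. The other cells received human PKD2, which encodes polycystin-2, as the WT form or as the mutants Tg1 (D511V), Tg2 (L656W) and Tg3 (R742X). Tg1 is described in the study as a dominant-negative form that impairs calcium release inside the cell, Tg2 as altered in the channel pore and Tg3 as lacking the C-terminal tail. The CAG promoter drove the transgene in all PKD2 plasmids, the pig cells kept their own PKD genes, and a transient transfection of 1 line does not model a mutation carried in the germline. There were 3 wells for each of the 5 plasmids, 15 libraries in all, and the labels give them only a replicate number, so the p-values below measure the spread between wells.

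MYC is a basic helix-loop-helix leucine zipper transcription factor that pairs with MAX and binds E-box sequences near genes of ribosome biogenesis, metabolism and the cell cycle. Its transcript and protein are both short-lived, which lets its level follow growth factor and stress signalling quickly, and it is often grouped with the immediate-early genes. In the kidney, MYC is known for its high level in cystic epithelium, and mice that overexpress it in the kidney develop cysts. MYC was also a target of the study's qRT-PCR, and the primers are printed here because they identify the pig MYC transcript that was assayed. Lower case is used throughout, since no base is singled out.
first MYC primer: gactctctgctctcctcc
second MYC primer: gcctcttttccacagaaaca

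The libraries held between 20216200 and 26132196 counts each. Levels are in CPM, the counts of a gene relative to the library total, after normalization by edgeR's TMM method, which rescales the libraries so that most genes do not differ between them, and 11553 genes with a mean of at least 2 CPM were tested. The labelled cell type was checked with 19 listed genes of proximal tubule and kidney epithelium, of which 17 could be matched to the count table. All 17 were at a mean of at least 2 CPM, such as the endocytic receptor LRP2 (260.2 CPM) and keratin 8, KRT8 (2297 CPM). The markers of other cell types summed to 18.7 to 26.2 CPM, and 3 of the 12 in the table reached 2 CPM, namely SLC12A1, DES and CD68. Neither the pig PKD2 transcript nor the introduced human PKD2 was analysed here, so the transgene level of each library is unknown from these counts. By qRT-PCR, the study reports very high human PKD2 and no effect on pig PKD1 or PKD2. It also reports the WT, Tg1 and Tg2 proteins by Western blot for the FLAG tag. Tg3 could not be seen that way, because it lacks the C-terminal region and the tag. Whether differences in MYC between PKD2 plasmids go with the transgene level was therefore not tested. In these bulk RNA data, fewer cells with a high level and less RNA in every cell cannot be told apart.

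MYC was expressed at a moderately high level in every well, and all 12 wells with a PKD2 plasmid lay above all 3 NC wells. In NC, MYC was at 219 CPM, 236 CPM and 223 CPM in replicates 1, 2 and 3. In WT, the same replicates were at 301 CPM, 262 CPM and 273 CPM, and in Tg1 at 258 CPM, 286 CPM and 313 CPM. In Tg2 they were at 318 CPM, 341 CPM and 311 CPM, and in Tg3 at 293 CPM, 281 CPM and 274 CPM. The lowest PKD2 well was thus Tg1 replicate 1 and the highest was Tg2 replicate 2, and the ranges of WT, Tg1 and Tg3 overlapped each other. Behind these levels stood 4965 to 7518 MYC counts per library, which gives a 95% counting interval of ±2.27% to ±2.79% around each level. Those intervals cover counting error only.

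**Figure D1:**
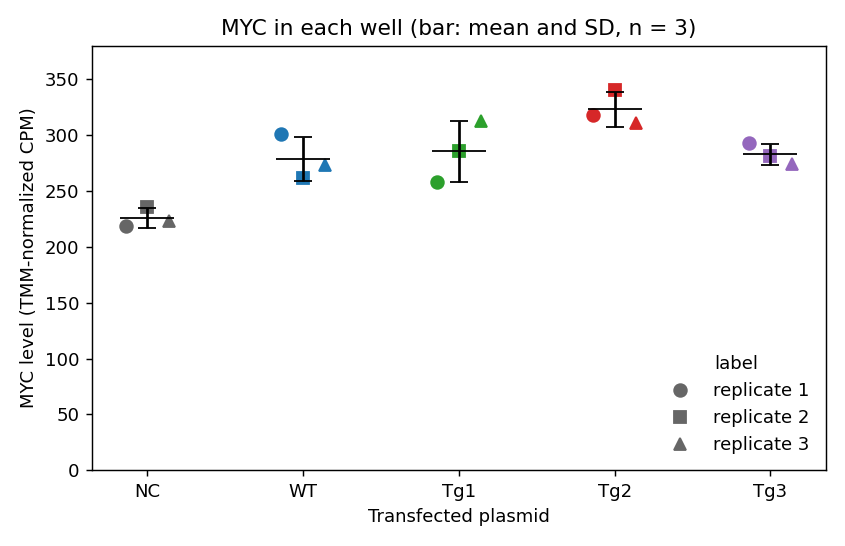
MYC level in TMM-normalized CPM (vertical axis, from 0) for each transfected plasmid (horizontal axis), with a symbol for each replicate number and the mean and SD of 3 wells in black. The NC wells sit between 219 CPM and 236 CPM, below every PKD2 well, and the Tg2 wells sit between 311 CPM and 341 CPM.

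Ordered by mean, MYC was lowest in NC at 226 ± 8.66 CPM (SD, n = 3). WT followed at 279 ± 19.9 CPM (SD, n = 3), Tg3 at 283 ± 9.53 CPM (SD, n = 3) and Tg1 at 286 ± 27.3 CPM (SD, n = 3). Tg2 was highest at 323 ± 15.7 CPM (SD, n = 3). The means of WT, Tg3 and Tg1 lay closer together than the SD of any of these groups. Against NC, edgeR's estimate for MYC was a log2 fold change of 0.30 in WT (95% interval 0.16 to 0.45), which is a level 23.3% higher. It was 0.34 in Tg1 (0.19 to 0.48), 0.52 in Tg2 (0.37 to 0.66) and 0.32 in Tg3 (0.18 to 0.47), or 26.4%, 43.2% and 25.2% higher. The intervals describe the spread of a gene chosen on these differences and share the 3 NC wells. Genes whose 12 PKD2 wells all lay above the 3 NC wells numbered 78 of 11553, or 0.675%. A higher log2 fold change than that of MYC was found for 92 WT genes (0.796% of those tested), 275 Tg1 genes (2.38%), 361 Tg2 genes (3.12%) and 418 Tg3 genes (3.62%), so its rank among genes was highest in WT, where its fold change was smallest.

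Between the PKD2 genotypes, comparisons that were not used to pick the gene, MYC did not pass the thresholds of an adjusted p of 0.05 and an absolute log2 fold change of 0.26 in any of 6 contrasts. The largest difference was between Tg2 and WT, a log2 fold change of 0.21 (95% interval 0.07 to 0.36), with a Benjamini-Hochberg adjusted p = 0.0546 from the quasi-likelihood test of edgeR. The Tg2 and WT wells did not overlap (exact permutation test, two-sided, p = 0.1, the smallest p that 3 wells against 3 allow), and neither did those of 24.4% of all genes. In that contrast 5.92% of genes were called. The adjusted p fell below 0.05 with DESeq2 (0.0306) and with the replicate number as a block (0.0409), while the fold change stayed under the threshold in both. Other fits in edgeR went the other way, with an adjusted p of 0.126 for total counts alone, 0.173 for only the 2 groups compared and 0.0643 without the filter on low counts. With total counts alone the log2 fold change was 0.14.

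Tg2 was also higher than Tg3, by a log2 fold change of 0.19 (0.05 to 0.34), with no overlap of wells (exact permutation test, two-sided, p = 0.1). The adjusted p from edgeR was 0.822, and 0.00% of genes were called in that contrast, where 673 genes had an unadjusted p under 0.05 and 11.5% had wells that did not overlap. Against Tg1, Tg2 differed by a log2 fold change of 0.18 (0.04 to 0.32, edgeR adjusted p = 0.173), the wells overlapped because Tg1 replicate 3 stood above the lowest Tg2 well, and 0.138% of genes were called. The remaining genotypes were close to each other in MYC. The log2 fold change was 0.04 for Tg1 against WT (−0.11 to 0.18, edgeR adjusted p = 0.813, 0.0692% of genes called). It was 0.02 for Tg3 against WT (−0.12 to 0.17, edgeR adjusted p = 0.876, 0.00% called) and −0.01 for Tg3 against Tg1 (−0.16 to 0.13, edgeR adjusted p = 0.952, 0.615% called). These 3 intervals leave room for differences of up to 0.18 in size. The estimates for Tg1 and Tg3 against WT changed sign with total-count scaling, and all 3 changed sign when single wells were left out.

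**Figure D2:**
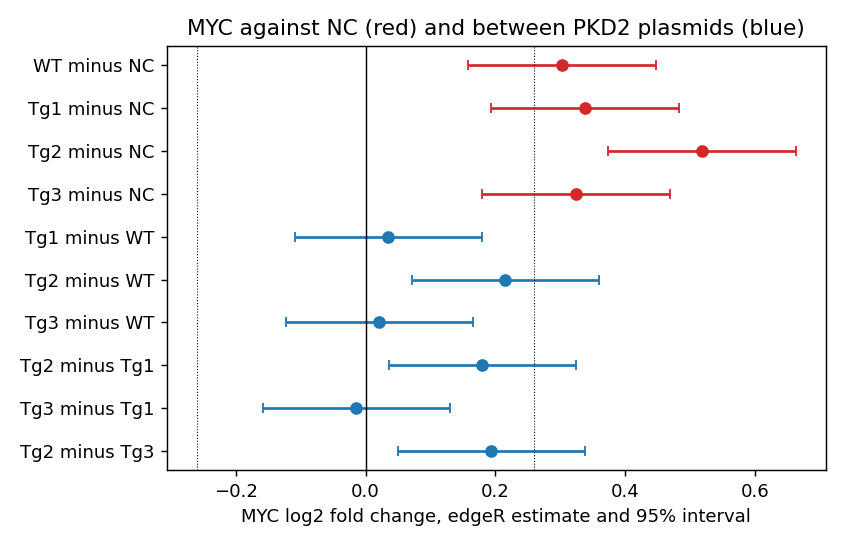
MYC log2 fold change (horizontal axis) for each contrast (vertical axis), with the 95% interval from edgeR; red marks the contrasts with NC, blue those between PKD2 plasmids, and dotted lines the fold threshold of 0.26 in each direction. The Tg2 contrasts with WT, Tg1 and Tg3 lie at 0.21, 0.18 and 0.19 with intervals above 0, and the other blue intervals include 0.

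Within a plasmid, MYC varied about as much as a typical gene. The SD of its log2 CPM around the plasmid means was 0.089, where the median gene had 0.0925 and 47.2% of genes had a smaller value. Across the 5 plasmid means, NC included, the SD of MYC was 0.186, larger than that of 90.7% of genes. MYC was picked for its difference from NC, so a large SD over these means follows from that choice and is a description only. The coefficient of variation was highest in Tg1 (9.55%) and lowest in Tg3 (3.37%). The Tg1 wells spanned from 0.14 below to 0.14 above their mean on the log2 scale, and WT replicate 1 was 0.11 above its mean. Wells with the same replicate number did not share a direction, because MYC was above its plasmid mean in 2 of 5 wells numbered 1, in 3 of 5 numbered 2 and in 1 of 5 numbered 3.

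The deviations of MYC from the plasmid means were then set against 5 other measures of the same 15 wells, each by an exact permutation test within plasmids (7776 orders, two-sided). For the library total, Pearson's r was 0.158 (p = 0.616) and Spearman's rho was 0.0571 (p = 0.858). For the TMM factor r was −0.255 (p = 0.469) and rho was −0.307 (p = 0.372). For the first principal component of all within-plasmid deviations, which held 46.2% of their variance, r was 0.188 (p = 0.602) and rho was 0.325 (p = 0.341). MYC thus showed no detectable relation to depth or to the main axis along which wells of the same plasmid differed, in a test with 15 wells. Adjusted over the 5 relations, these p-values were 0.616 for each r. The adjusted values for rho were 0.858, 0.465 and 0.465.

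IER3 and ADM are the genes that the study singled out together with MYC, and their relation to MYC between wells of the same plasmid was not used for that choice. IER3, an early response gene that affects survival under stress, was at 179, 195 and 185 CPM in NC and at 283, 223 and 277 CPM in WT, in the order of the replicates. It was at 229, 264 and 268 CPM in Tg1, at 271, 320.4 and 280.3 CPM in Tg2 and at 258, 229 and 249 CPM in Tg3. In all 5 plasmids the well with the highest MYC was also the highest in IER3, although Tg1 replicates 2 and 3 were close in IER3. The correlation of the within-plasmid deviations was r = 0.786 (exact permutation test within plasmids, p = 0.00759, adjusted over 5 relations 0.0379) and rho = 0.761 (p = 0.0122, adjusted 0.0611). Without Tg1 replicate 3 and WT replicate 1, the wells farthest from the median of MYC, r was 0.774. With each well left out in turn, r for IER3 was between 0.73 and 0.86.

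ADM, which encodes the vasodilator peptide adrenomedullin, was at 66.0, 73.5 and 64.2 CPM in NC and at 87.4, 94.2 and 78.8 CPM in WT. In Tg1 it was at 86.0, 103 and 106 CPM, in Tg2 at 125, 112 and 99.3 CPM and in Tg3 at 90.5, 88.6 and 84.4 CPM. ADM was highest in a different well from MYC in WT and Tg2. For ADM, r was 0.502 (exact permutation test within plasmids, p = 0.170, adjusted 0.425) and rho was 0.454 (p = 0.203, adjusted 0.465). Without the same pair of wells r was 0.468. The value depended on single wells, since r was 0.25 without Tg1 replicate 1 and 0.74 without WT replicate 2 (exact permutation, p = 0.0347).

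Across all genes, the slope of each gene on the MYC deviation was fitted in edgeR beside the plasmid means. None of 11552 genes had an adjusted p of 0.05 or less, which is 0.00% with a positive and 0.00% with a negative slope, and 421 had an unadjusted p under 0.05. Without WT replicate 2, the genes called were FOSL1, CXCL2, EDN1, ZFP36 and 1 gene without a symbol, and without WT replicate 3 MAFF alone was called. The gene without a symbol falls outside the rule for named genes. The smallest adjusted p in the full set of wells was 0.162 and belonged to FOSL1, a member of the AP-1 family of transcription factors, whose slope was 1.68 (SE 0.25) log2 units per log2 unit of MYC.

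FOSL1 was at 60.5, 71.0 and 59.7 CPM in NC, at 98.1, 81.9 and 86.0 CPM in WT and at 67.0, 92.0 and 98.1 CPM in Tg1. It was at 102, 108 and 102 CPM in Tg2 and at 91.1, 80.6 and 82.1 CPM in Tg3. The highest FOSL1 well of each plasmid was also the highest MYC well. Among 8603 genes with a symbol and a mean of at least 10 CPM, FOSL1 had the highest within-plasmid correlation with MYC (r = 0.910). It was followed by BMS1, a GTPase of small ribosomal subunit assembly (0.901), MAFF, a small MAF transcription factor (0.883), CXCL2, a neutrophil-attracting chemokine (0.879), and SLF1 (0.860), which acts in DNA repair. The 5 lowest were HIBADH (−0.849), SLC16A10 (−0.848), POLG (−0.848), DUSP22 (−0.830) and SSNA1 (−0.823). These genes were taken from the ends of the ranking over 15 wells, where 4.72% of genes had r over 0.5 and 5.04% had r under −0.5. All r share the libraries and their scaling.

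**Figure D3:**
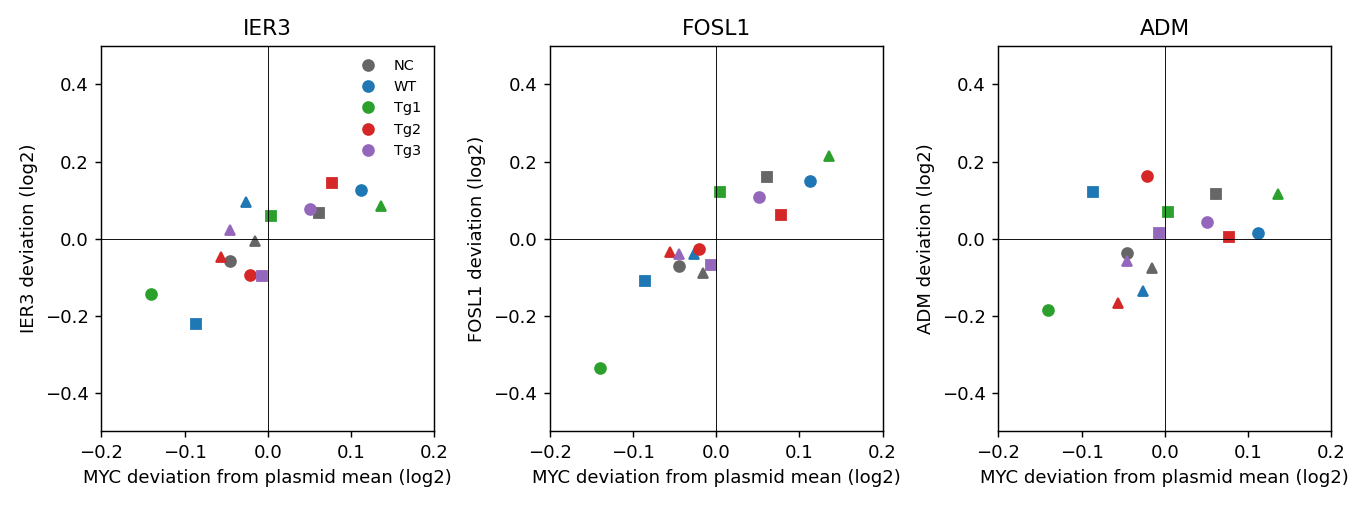
Deviation of each of 15 wells from its plasmid mean in log2 CPM, for MYC (horizontal axis) and for IER3, FOSL1 and ADM (vertical axes), with a colour for each plasmid and circles, squares and triangles for replicates 1, 2 and 3. The points follow a rising line for IER3 (r = 0.786) and FOSL1 (r = 0.910) and scatter more for ADM (r = 0.502).

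The immediate-early genes, which are induced by growth and stress signals without new protein synthesis, had positive slopes on MYC for all 16 members tested, with a median of 1.06 beside 0.003 over all genes and a median r of 0.543. BHLHE40 had a slope of 1.06 (SE 0.27), TRIB1 of 1.13 (SE 0.40), EGR1 of 1.03 (SE 0.56) and FOS of 1.12 (SE 0.81), and for JUN and JUNB the slopes were 0.44 (SE 0.33) and 0.48 (SE 0.32). With total-count scaling 15 of the 16 were positive. These genes also vary together, so the signs are not separate observations. The lists of known MYC targets had medians nearer 0. In the MYC-repressed list, 4 of 9 slopes were positive (median −0.05). CDKN1A, a cell cycle inhibitor that MYC represses, had a slope of −0.24 (SE 0.30), which turned positive with total-count scaling, and ODC1, an enzyme of polyamine synthesis and a classical MYC target, had one of 0.02 (SE 0.18). Those of the nucleolar proteins NCL and NPM1 were 0.22 (SE 0.19) and 0.00 (SE 0.17), and that of MAX, the obligate partner, was 0.39 (SE 0.71), negative with total-count scaling. Of 28 nucleolar and ribosome biogenesis genes, 26 had a positive slope (21 with total-count scaling), with a median of 0.21 (0.12 with total-count scaling), and of 27 growth and cell cycle genes 13 did, with a median of −0.002. None of these slopes was called.

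Over the 5 plasmid means, the genes most like MYC were EDN1 (r = 0.994), ERRFI1 (0.994), TEDC2 (0.993), CDC42EP2 (0.992) and ANKRD1 (0.992), out of 2019 genes whose means spanned at least 0.26 on the log2 scale. EDN1 encodes the vasoconstrictor endothelin-1, ERRFI1 a feedback inhibitor of the EGF receptor, and ANKRD1 is a well-known target of the YAP and TAZ coactivators. With 5 points and a shared NC, such values are common, and 86 of the 2019 genes had r over 0.9. The span of the means was 0.52 for MYC, 1.03 for EDN1 and 0.33 for TEDC2. EDN1 was at 25.6, 35.4 and 27.3 CPM in NC and at 64.8, 66.3 and 49.6 CPM in Tg2, with all other wells between 33.4 CPM and 53.3 CPM. The genes differed in how they followed MYC within a plasmid, where r was 0.835 for EDN1, 0.655 for ERRFI1, 0.591 for ANKRD1, 0.441 for CDC42EP2 and 0.073 for TEDC2.

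**Figure D4:**
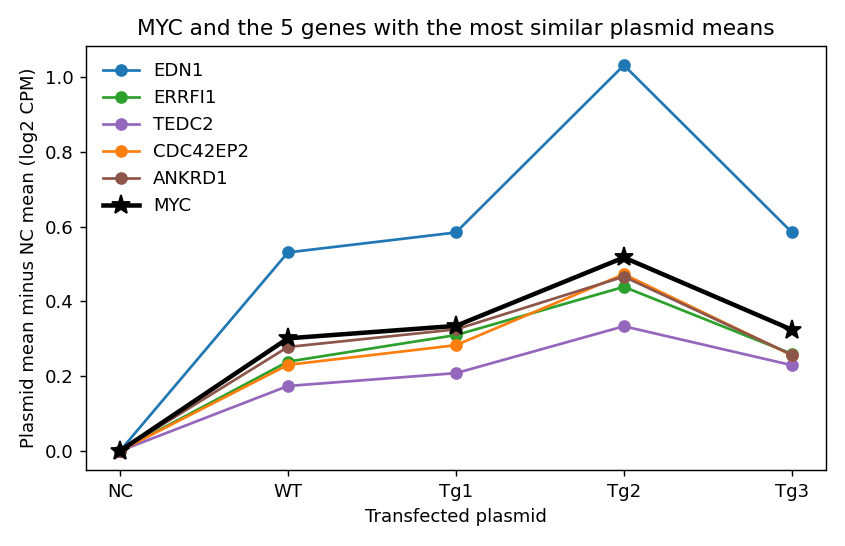
Plasmid mean minus the NC mean in log2 CPM (vertical axis) for MYC (black) and the 5 genes whose means are most correlated with it, by plasmid (horizontal axis). All 6 lines are lowest in NC and highest in Tg2, and EDN1 spans 1.03 where MYC spans 0.52.

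None of the tested genes nearest MYC on its chromosome was called against NC. The order was taken from the RefSeq pig annotation, and only genes with a row in the count table were used. On one side lie ASAP1, ADCY8 and EFR3A, and on the other LRATD2, TRIB1 and NSMCE2. ADCY8 had a mean of 1.90 CPM and was not tested. EFR3A, which anchors a lipid kinase at the plasma membrane, had log2 fold changes of −0.04, −0.17, −0.25 and −0.17 in WT, Tg1, Tg2 and Tg3, opposite in sign to those of MYC, and in Tg2 its edgeR adjusted p was 0.0117 with a fold under the threshold. LRATD2 had values of 0.005, 0.14, 0.25 and 0.10, and ASAP1, an ARF GTPase-activating protein, 0.01, 0.05, 0.15 and 0.02. TRIB1, a pseudokinase and itself an early response gene, had 0.41, 0.25, 0.26 and 0.11, with its highest value in WT and not in Tg2. Within plasmids, r with MYC was 0.641 for TRIB1 and 0.624 for NSMCE2, and between −0.155 and 0.111 for the other 3.

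None of the partners of MYC was called by edgeR against NC. Of 20 genes of the MAX network and its cofactors, 16 were tested, 1 to 4 per genotype had an unadjusted p under 0.05 and 0 were called by edgeR, while DESeq2 called 1, MAX in Tg2. How many of all genes DESeq2 called is not given here. Over all genes, 4.54%, 19.9%, 35.2% and 18.1% had an unadjusted p under 0.05 in edgeR in WT, Tg1, Tg2 and Tg3. In Tg2 edgeR called 1 of the 16 without NC replicate 2 and 2 without Tg2 replicate 3. Log2 fold changes were above 0 for 9, 11, 11 and 14 of them in WT, Tg1, Tg2 and Tg3, with medians of 0.01, 0.05, 0.11 and 0.08 beside medians between −0.007 and 0.003 over all genes. Over all genes, 0.00% were called higher and 0.00% lower in WT and likewise in Tg3, 0.182% higher and 1.01% lower in Tg1, and 4.73% higher and 3.70% lower in Tg2. MAX itself was at 50.02, 58.7 and 46.4 CPM in NC and at 82.1, 72.4 and 60.1 CPM in Tg2, a log2 fold change of 0.47 (SE 0.16, edgeR adjusted p = 0.0589). The wells of MAX did not overlap in that comparison, and neither did those of 35.5% of all genes. Replicate 2 of NC and replicate 3 of Tg2 were close in MAX. MXD1, which competes with MYC for MAX, had a log2 fold change of 0.48 in Tg2 (SE 0.23, edgeR adjusted p = 0.153).

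Genes that act on MYC were called in Tg1 and Tg2, where 1.19% and 8.43% of all genes were called. Among 15 genes of MYC protein turnover, CIP2A, which shields MYC from dephosphorylation and decay, fell in Tg1 by 0.26 on the log2 scale (SE 0.05, edgeR adjusted p = 0.0246), and none was called in the other genotypes. The call in Tg1 is 6.67% of that list. CIP2A was no longer called when any well of NC or Tg1 was left out, except Tg1 replicate 1. Among 11 genes of MYC mRNA stability and translation, ZFP36, which promotes the decay of AU-rich transcripts, rose in Tg1 (log2 fold change 0.46, edgeR adjusted p = 0.0222) and in Tg2 (0.54, edgeR adjusted p = 0.0107). ZFP36 was at 438, 503 and 468 CPM in NC and at 668, 742 and 642 CPM in Tg2. Its wells did not overlap, and neither did those of 35.5% of all genes. Its relative ZFP36L1 rose in Tg2 (0.56, edgeR adjusted p = 0.0238), and so did IGF2BP2, which stabilises transcripts (0.28, edgeR adjusted p = 0.0329). The calls in this list are 9.09% of its genes in Tg1 and 27.3% in Tg2. The call of ZFP36 in Tg1 held without NC replicate 2 or Tg1 replicate 1, and was lost without any of the other wells of that comparison. In Tg2 it was lost without NC replicate 1, NC replicate 3 or Tg2 replicate 2, and those of ZFP36L1 and IGF2BP2 were lost without any of these wells or without Tg2 replicate 1.

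Among 23 regulators of MYC transcription, LRP6 was called in Tg1 and RELA in Tg2. Each is 4.35% of the list, beside 1.19% of all genes in Tg1 and 8.43% in Tg2. LRP6, a Wnt co-receptor upstream of β-catenin, fell in Tg1 by 0.39 on the log2 scale (SE 0.05, edgeR adjusted p = 0.00518), from 48.04, 42.6 and 45.1 CPM in NC to 32.5, 34.3 and 36.4 CPM. It remained called in every fit that left out a well of Tg1 or NC. RELA, a subunit of NF-κB, rose in Tg2 (0.31, edgeR adjusted p = 0.025). CTNNB1, the β-catenin gene itself, had log2 fold changes of 0.04, 0.09, 0.17 and 0.11 and was not called. Scaling by total counts alone gave the protein turnover medians in Tg2 and Tg3, the mRNA stability median in Tg1 and the regulator median in Tg2 the opposite sign, and RELA was then not called.

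Of 28 known MYC-activated genes of the nucleolus and of ribosome biogenesis, 3 were called against NC, all in Tg2, where 8.43% of all genes were called. Log2 fold changes were above 0 for 10, 22, 24 and 26 genes in WT, Tg1, Tg2 and Tg3, with medians of −0.02, 0.08, 0.18 and 0.18. In WT, where MYC was 23.3% above NC, the median of this list was within 0.02 of that over all genes. The genes called in Tg2 were NOP2, an rRNA methyltransferase (0.31, SE 0.05, edgeR adjusted p = 0.0107), RRS1 (0.33, edgeR adjusted p = 0.0268) and PPAN (0.31, edgeR adjusted p = 0.0244), both factors of large ribosomal subunit assembly. NOP2 was at 58.0, 57.2 and 55.4 CPM in NC, 60.9, 59.9 and 55.1 CPM in WT, 64.9, 66.7 and 67.0 CPM in Tg1, 66.2, 74.9 and 70.5 CPM in Tg2 and 70.5, 72.0 and 67.3 CPM in Tg3. NOP2 in NC and WT overlapped, and the wells of all 3 mutants lay above both. Over all genes, 26.7%, 35.5% and 27.3% had wells in Tg1, Tg2 and Tg3 that did not overlap those of NC. Most members stayed below the fold threshold, since 18 had an adjusted p of 0.05 or less in Tg2 and 3 also passed the fold. The share of all genes at that adjusted p without the fold is not given here. At an unadjusted p under 0.05, the list had 22 genes in Tg2 (78.6%, beside 35.2% of all genes). In Tg3, 0 were called by edgeR and 2 by DESeq2, NOP2 and GRWD1, while 22 had an unadjusted p under 0.05 (78.6%, beside 18.1% of all genes). For the DESeq2 calls no share of all genes is given here. With total counts alone the medians kept their signs and 0 were called in Tg2.

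Of 27 tested MYC-activated genes of growth, metabolism and the cell cycle, 6 were called against NC, all in Tg2. They are 22.2% of the list, beside 8.43% of all genes, and their number was 0 to 8 with single wells left out. Of these 27, 12, 18, 18 and 21 were above NC in WT, Tg1, Tg2 and Tg3, and the medians were −0.004, 0.06, 0.06 and 0.07, where total-count scaling turned the Tg2 median to −0.02. In Tg2, 5 rose and 1 fell. HK2, the hexokinase that traps glucose in the cell, rose by a log2 fold change of 0.67 (SE 0.11, edgeR adjusted p = 0.0117), from 60.0, 64.8 and 51.3 CPM in NC to 100.5, 97.1 and 82.9 CPM. LDHA of lactate production (0.27), the cell cycle phosphatase CDC25A (0.32), the replication helicase subunit MCM5 (0.27) and CDCA7 (0.35) also rose, and the folate carrier SLC19A1 fell by 0.33, with edgeR adjusted p-values from 0.0195 to 0.0456. ODC1 had a log2 fold change of 0.21 in Tg2 and in Tg3, below the fold threshold. Scaling by total counts left 2 genes higher and 2 lower in Tg2, and over all genes it moved the share of higher genes among those called in Tg2 from 56.1% to 28.7%.

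**Figure D5:**
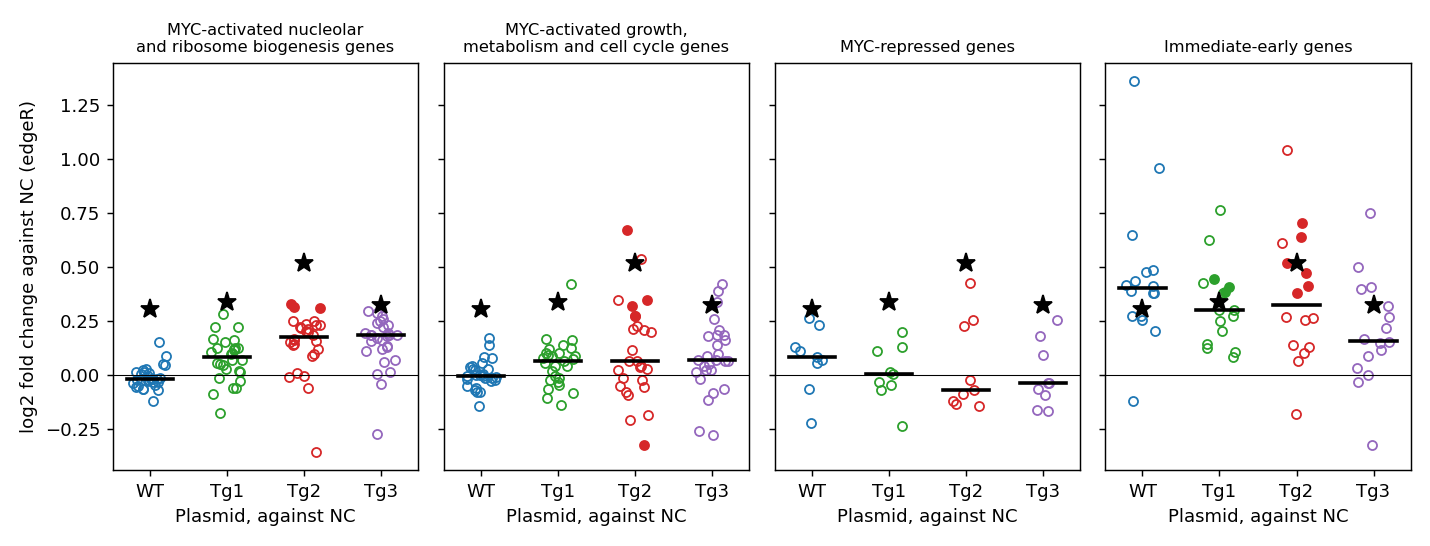
Log2 fold change against NC from edgeR (vertical axis) for each tested gene of 4 lists (panels) and each PKD2 plasmid (horizontal axis); filled points passed both thresholds, black bars are list medians and stars are MYC. MYC lies above the median of both activated lists in all genotypes, and the immediate-early genes have medians of 0.40, 0.30, 0.32 and 0.16 in WT, Tg1, Tg2 and Tg3.

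Of 15 genes that MYC represses in other cells, 9 were tested, and 0 were called by edgeR against NC in any genotype. Unadjusted p-values under 0.05 were found for 4, 1, 4 and 1 of them in WT, Tg1, Tg2 and Tg3. These are 44.4%, 11.1%, 44.4% and 11.1%, beside 4.54%, 19.9%, 35.2% and 18.1% of all genes. DESeq2 called 1, TXNIP in Tg2, which was higher (0.43), and its share of calls over all genes is not given here. With single wells left out, edgeR called 2 in Tg2 without NC replicate 2 or Tg2 replicate 3, and 2 in WT without WT replicate 2. The numbers above NC were 7, 5, 3 and 3 in WT, Tg1, Tg2 and Tg3, with medians of 0.08, 0.002, −0.07 and −0.04, and total-count scaling gave the Tg1 median the opposite sign. CDKN1A had log2 fold changes of 0.08, −0.05, −0.12 and −0.04. THBS1, an inhibitor of angiogenesis, had values of 0.26, 0.13, 0.23 and 0.18, on the same side as MYC.

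The immediate-early genes, of which 16 were tested and which were partly named by the study from these wells, had medians of 0.40 in WT, 0.30 in Tg1 and 0.32 in Tg2, the highest of the lists in these genotypes, and 0.16 in Tg3. They were above NC for 15, 16, 15 and 13 genes. In Tg1, JUNB (0.41), IER2 (0.39) and IER3 (0.44) rose, with edgeR adjusted p-values from 0.0222 to 0.0366. In Tg2, these 3 genes rose (0.52, 0.47 and 0.64) together with FOSL1 (0.71), the MAP kinase phosphatase DUSP1 (0.41) and the circadian repressor BHLHE40 (0.38), with edgeR adjusted p-values from 0.00865 to 0.0321. The calls are 18.8% of the list in Tg1 and 37.5% in Tg2, beside 1.19% and 8.43% of all genes. In WT, 0 were called by edgeR and 5 by DESeq2 (FOSL1, ATF3, DUSP1, IER3 and BHLHE40), and 14 had an unadjusted p under 0.05. In Tg3, 0 were called by edgeR and 3 by DESeq2 (FOSL1, JUNB and IER3), and 4 had an unadjusted p under 0.05. The share of all genes that DESeq2 called is not given here, so its counts have no background beside them. At that unadjusted p the list stood at 87.5% in WT and 25% in Tg3, beside 4.54% and 18.1% of all genes. WT replicate 2 decided the count in WT, which was 7 without it. The count in Tg1 was 4 without Tg1 replicate 1 and 0 without any of the other wells of NC or Tg1. In Tg2 it was 0 without NC replicate 3 or Tg2 replicate 2, 2 without NC replicate 1, 4 without Tg2 replicate 1, 5 without NC replicate 2 and 6 without Tg2 replicate 3, and in Tg3 it was 0 in every such fit.

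The 129 tested genes of the MYC network and target lists, without the immediate-early genes, had 0, 3, 13 and 0 calls in WT, Tg1, Tg2 and Tg3, with 12, 36, 64 and 43 at an unadjusted p under 0.05. The calls in Tg2 are 10.1% of the listed genes beside 8.43% of all genes, so their share was near that of all genes, and those in Tg1 are 2.33% beside 1.19%. At an unadjusted p under 0.05 the listed genes stood at 9.30%, 27.9%, 49.6% and 33.3% in WT, Tg1, Tg2 and Tg3, beside 4.54%, 19.9%, 35.2% and 18.1% of all genes. The 13 calls in Tg2 were 12 higher and 1 lower, and they rested on single wells, since none remained without NC replicate 3 or Tg2 replicate 2, 1 without NC replicate 1, 3 without Tg2 replicate 1, 21 without NC replicate 2 and 29 without Tg2 replicate 3. In Tg1 1 call, LRP6, remained without NC replicate 1, NC replicate 3, Tg1 replicate 2 or Tg1 replicate 3, and in WT THBS1 and GADD45A were called without WT replicate 2. Beside these counts, markers of the proximal tubule also moved in Tg2, where LRP2, CUBN, SLC5A2, SLC34A1, ANPEP and VIL1 fell and CDH1 rose among 17 tested, 7 calls or 41.2% beside 8.43% of all genes, with a list median of −0.20. In Tg3 the median of these markers was also −0.20, 12 of the 17 were below NC, 0 were called by edgeR and 10 had an unadjusted p under 0.05, 8 of them lower. The summed level of that list was 4790 to 4857 CPM in NC, 4737 to 5014 CPM in Tg2 and 4790 to 4892 CPM in Tg3. This sum rests largely on KRT8, KRT18 and CDH1, with means of 2297, 579 and 351 CPM over all wells. The markers called lower in Tg2 had means from 49.4 CPM (VIL1) to 260 CPM (LRP2), so the sum says little about them. The part of these marker changes in the target gene counts was not tested.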

How the data were processed

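Poly(A) RNA of 15 wells was sequenced. Salmon was run by the authors on the pig transcript sequences of Ensembl. The deposited values are counts of reads for each Ensembl gene, whole and not normalized, and how transcripts were summed to genes is not given in the sources used here. Genes that resemble others can share reads in this step. Columns of the count table were matched to wells by the labels.

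The 11553 genes whose CPM averaged at least 2 were kept. edgeR 4.0.16 in R 4.3.3 was used with TMM normalization, glmQLFit and glmQLFTest, all 15 libraries in 1 model of plasmid means, and Benjamini-Hochberg adjustment over all genes tested. A gene was called when its adjusted p was at most 0.05 and its log2 fold change at least 0.26 in size. Slopes were fitted on the deviation of MYC log2 CPM, without a prior count, from its plasmid mean, beside the plasmid means. They were called at an adjusted p of 0.05 or less. The log2 CPM of the genes correlated with MYC and of the SDs had a prior count of 2. The correlations used exact permutations of wells within plasmids. The fits were tested on simulated data.

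MYC and the gene lists, which come from textbook knowledge of MYC, were chosen with earlier results of these data known. The genes named were MYC, listed genes that passed a test and up to 6 more per list by unadjusted p, the genes set against MYC well by well, the 5 highest and 5 lowest within-plasmid correlations, the 5 highest over plasmid means, and the 3 nearest neighbours on each side in RefSeq. Symbols came from RefSeq for 13373 of 16660 rows and from the study's gene tables for 53 more.

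Alternatives were DESeq2 1.42.0, its size factors, total counts alone, no filter, fits of only the groups compared, the replicate number as a block, no fold threshold, Spearman's rho and leaving out each library. The correlations with the TMM factor and with the first component were added after the data were seen. No sequence of the MYC locus was used here beyond the primers, and the genome build behind the Ensembl transcripts is not named in the sources used here, so no coordinates are given.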

Additional observations from a re-analysis of the deposited data

Results flagged for a closer look

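Genes of the MYC lists whose change differed between PKD2 genotypes are given here, each by the edgeR test of the difference itself, and no explanation was tested. In Tg1, the Wnt co-receptor LRP6 was lower than in WT (log2 fold change −0.33, edgeR adjusted p = 0.0258), and it was higher in Tg3 than in Tg1 (0.34, edgeR adjusted p = 0.0127). With a single well of the compared plasmids left out, each of these LRP6 calls held in 1 of 6 fits, without WT replicate 2 and without Tg1 replicate 3 respectively, and the edgeR adjusted p of LRP6 rose to as much as 0.180 and 0.0832. The nucleolar helicase DDX21 was also higher in Tg3 than in Tg1 (0.31, edgeR adjusted p = 0.0104), a call that held in 2 of 6 such fits, without Tg1 replicate 3 or Tg3 replicate 1. Over all genes, 0.0692% were called between Tg1 and WT and 0.615% between Tg3 and Tg1.

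Between Tg2 and WT, where MYC itself did not pass both thresholds, 14 of 146 tested genes of the lists or set against MYC differed (9.59%), beside 5.92% of all genes. In the nucleolar list, NOP2 (0.27), GRWD1 (0.29), DKC1 (0.31), NOP56 (0.31) and NIP7 (0.26) were higher in Tg2. Among the growth and cell cycle genes, HK2 (0.50), CDCA7 (0.35), CDC25A (0.32) and MCM5 (0.35) were higher. ADM (0.37), MYCBP2 (0.42), which binds MYC, IGF2BP2 (0.27) and RELA (0.26) were higher as well, and GADD45A, a stress gene that MYC represses, was lower (−0.32). The edgeR adjusted p-values of these 14 were from 0.0239 to 0.0469. When a single well of Tg2 or WT was left out, each was called in 2 of 6 fits. All Tg2 contrasts share the same 3 wells.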

How the results depend on the processing

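MYC was above NC in every genotype under every alternative run. With single wells left out, its log2 fold change against NC was 0.24 to 0.35 in WT, 0.27 to 0.41 in Tg1, 0.48 to 0.55 in Tg2 and 0.30 to 0.36 in Tg3, and with total counts alone it was 0.44 in Tg2. Total counts alone gave −9.74e-05 for Tg1 against WT and −0.0163 for Tg3 against WT. With single wells left out, MYC ranged from −0.0353 to 0.10 for Tg1 against WT, −0.0212 to 0.0794 for Tg3 against WT, −0.0813 to 0.0565 for Tg3 against Tg1, 0.17 to 0.27 for Tg2 against WT, 0.11 to 0.25 for Tg2 against Tg1 and 0.15 to 0.22 for Tg2 against Tg3. No alternative called MYC between PKD2 plasmids, and for Tg2 against WT the edgeR adjusted p was 0.0372 to 0.205 with single wells left out. Where a value moved, the cause was not tested.

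The number of network and target genes called was 4 in Tg3 with DESeq2, 8 in Tg2 with total counts alone, and 6 in Tg1 and 38 in Tg2 without a fold threshold. It was 0 to 2 in WT, 1 to 3 in Tg1, 0 to 29 in Tg2 and 0 in Tg3 with single wells left out. The shares of all genes called in these alternatives are not given here, so the counts have no background beside them. The slope calls numbered 0 to 5 with single wells left out, and r for ADM was 0.25 to 0.74. The slope of MAX was −0.39 and that of CDKN1A 0.0701 with total counts alone. The lowest slopes with single wells left out were −0.10 for NPM1, −0.07 for ODC1 and −0.0169 for MAX, and the highest were 0.19, 0.15 and 1.18.

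Replicate numbers are shared between plasmids, but the labels tie nothing else to them. The deviations of same-numbered wells correlated at 0.14 on average (−0.071 for other wells), with 20 of 30 pairs above 0.1. On the first component, the wells numbered 2 were at 9.99, 18.9, 3.81, 3.32 and 8.16 in NC, WT, Tg1, Tg2 and Tg3. Those numbered 3 were at −8.18, −13.6, 5.26, −12.2 and −6.55. This axis thus partly followed the replicate number. The permutations treat wells of a plasmid as exchangeable, which was not tested. With the replicate block, 1 network or target gene, NOP2, was called in Tg3 and 19 were called in Tg2, and the slope of NPM1 was −0.011. The share of all genes called with that block is not given here.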
